A study of Mus musculus with 18 samples.

Results

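The genes described here are 267 expressed genes of mouse chromosome 16, the chromosome that exchanges segments with chromosome 17 in the T43H translocation. They were chosen by position on chromosome 16 in the GRCm38.p6 annotation and by a median log2 value of at least 4 over all 18 arrays. Of 508 named chromosome 16 genes on the array, 222 lay below that level, 16 were left out by family names such as ribosomal, proteasome and zinc finger genes, and 3 spermatid genes (Prm1, Prm2 and Tnp2) were left out by name. Over all chromosomes, 8723 named genes reached the same level. The level that chose the genes is not a finding. Phldb2, Tmem45a2 and Nagpa were just inside it, with medians of 4.02, 4.03 and 4.12, and C2cd2, Glis2 and 2510002D24Rik just outside it, with 3.998, 3.991 and 3.990.

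The study measured gene expression on 18 arrays in 7 groups. Spermatocytes were sorted by fluorescence from males aged 2 months. Ttf+/+T43H males gave 3 samples of pre-mid-pachytene cells, t12+/+T43 males gave 3 and C57BL/10J males 2. A further pair of C57BL/10J samples held cells in mid-late-pachytene. At 15 days of age, testes stripped of the tunica were taken from 3 Ttf+/+T43H, 3 t12+/+T43 and 2 C57BL/6J males. Carriers are named Ttf and t12 below, after the chromosome 17 that lies opposite the translocation, and all carry the translocation on a C57BL/10J stock. The testis controls are C57BL/6J, so that strain and carrier state cannot be told apart in testes, whereas the sorted controls are C57BL/10J.

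T43H is a reciprocal exchange between chromosomes 16 and 17, and in heterozygous carriers the exchanged and the ordinary chromosomes pair as a cross at meiosis. Where homologues fail to synapse, DNA damage response proteins coat the chromatin and transcription is switched off, a process called meiotic silencing of unsynapsed chromatin. The t haplotypes are chromosome 17 variants with inversions that hinder pairing with an ordinary chromosome 17. The X and Y chromosomes of normal males are silenced by the same machinery during pachytene, and sterility of male carriers of such exchanges has been tied to it. The members were set in gene order and divided into 8 segments of 33 or 34 genes, from segment 1 next to the centromere, Naa60 to 1810013L24Rik, to segment 8 at the far end, Urb1 to Zbtb21. The place of the T43H break on chromosome 16 was not used here.

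Septin12, a testis septin of the ring in the sperm tail, lies in segment 1 and had the largest called difference from controls in t12 sorted cells. Septin12, its near neighbour Rogdi and the clone gene 1700037C18Rik were the 3 members that fell by the test in t12 carriers in both sorted cells and testes, and the 250 bases before their starts are shown for that reason. They were 3 of 250 members tested in both, beside 103 of 8187 genes, so their number is not a finding about chromosome 16. Septin12 entered the test in testes only through the 2 C57BL/6J arrays. Rogdi and 1700037C18Rik were picked after their values were seen. The sequences are those of RefSeq, build GRCm38.p6, whose table held 223 of the 267 members, and each lies on the minus strand, read toward the gene. Septin12 is at chr16:4997853-4998102, Rogdi at chr16:5013554-5013803 and 1700037C18Rik at chr16:3908690-3908939. Capitals mark the CCAAT box (CCAAT, or ATTGG on the other strand) and the core of a CREB site (TGACG, or CGTCA), both searched on both strands.
Septin12: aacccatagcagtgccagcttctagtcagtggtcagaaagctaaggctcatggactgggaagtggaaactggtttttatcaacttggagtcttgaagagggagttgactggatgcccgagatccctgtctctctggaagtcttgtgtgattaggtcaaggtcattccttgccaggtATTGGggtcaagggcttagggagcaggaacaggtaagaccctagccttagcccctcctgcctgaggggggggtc
Rogdi: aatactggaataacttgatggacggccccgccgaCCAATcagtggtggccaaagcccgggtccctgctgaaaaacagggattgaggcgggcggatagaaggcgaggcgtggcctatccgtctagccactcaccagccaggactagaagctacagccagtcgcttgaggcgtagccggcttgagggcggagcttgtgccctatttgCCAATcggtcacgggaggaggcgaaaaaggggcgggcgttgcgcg
1700037C18Rik: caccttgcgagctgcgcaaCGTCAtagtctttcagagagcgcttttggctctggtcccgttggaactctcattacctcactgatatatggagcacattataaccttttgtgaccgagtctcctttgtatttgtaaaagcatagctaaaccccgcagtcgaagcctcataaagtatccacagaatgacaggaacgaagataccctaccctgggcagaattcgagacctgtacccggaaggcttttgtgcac
The Septin12 window held 1 CCAAT box, starting 74 bases before the gene, and the Rogdi window held 2, at 216 and 45 bases. The 1700037C18Rik window held no CCAAT box and 1 CREB core at 231 bases. A CCAAT box was present in 34.5% of the 27025 such windows in the table and in 87 of the 223 of the members. A CREB core was present in 17.9% of all and 30.5% of the members' windows. The full CREB site (TGACGTCA, which contains the core) was present in 1.62% and 3.14%, and the E box (CACGTG) in 6.05% and 9.42%, and neither was in these 3 windows. The members were chosen by expression level and the windows of the whole table were not, so these shares do not compare like sets. Guanine and cytosine made up 52.8% of the Septin12 window, 61.2% of that of Rogdi and 48.0% of that of 1700037C18Rik, against a median of 62.4% over the members' windows and 52.0% over all windows. Fam3b, Nfkbiz and Cebpd, described below, had no entry in the table.

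The first question was whether chromosome 16 genes were lower in carriers, and where along the chromosome. The level of a segment on an array is the mean log2 value of its members minus the mean of 7709 genes of the other autosomes, chromosome 17 excepted, and it has no test. In testes, the carriers were lower than C57BL/6J in segments 1, 2 and 3, with no overlap between arrays. Segment 1 was at -0.87, -0.85 and -0.83 in the Ttf testes, at -0.80, -0.79 and -0.75 in the t12 testes, and at -0.67 and -0.69 in C57BL/6J. Segment 2 was at -0.51, -0.52 and -0.54 in the Ttf testes, -0.53, -0.49 and -0.49 in the t12 testes and -0.34 and -0.36 in C57BL/6J. The mean difference from the control was -0.17 for Ttf and -0.10 for t12 in segment 1, -0.17 and -0.15 in segment 2, and -0.14 and -0.13 in segment 3. When a segment's level was taken as the median of its members' values in place of the mean, the difference in segment 1 turned to 0.05 for Ttf and 0.10 for t12, while segment 2 stayed at -0.16 and -0.25 and segment 3 at -0.12 and -0.12. The median of the tested members' own changes was -0.10 and -0.05 in segment 1, -0.17 and -0.17 in segment 2 and -0.10 and -0.06 in segment 3, beside 0.00 and 0.02 over all genes. Segment 6 was lower as well with no overlap, by -0.07 and -0.06, but at 0.05 and 0.18 with medians, and segments 4 to 8 in all differed from C57BL/6J by -0.10 to 0.03 in the Ttf testes and by -0.06 to 0.07 in the t12 testes.

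In sorted pre-mid-pachytene cells the mean levels of the same segments were lower, with a wider spread between arrays. Segment 2 was at -0.79, -0.60 and -0.78 in Ttf cells, -0.78, -0.77 and -0.67 in t12 cells and -0.51 and -0.55 in C57BL/10J. All 6 carriers were thus below both controls there. In segments 1 and 3 the t12 cells differed from C57BL/10J by -0.22 and -0.25 with no overlap, while the Ttf cells differed by -0.12 and -0.07 and overlapped the controls, segment 3 turning to 0.15 with medians. The mean level of segment 4 was also lower with no overlap, by -0.42 in Ttf and -0.23 in t12 cells, but in t12 cells the median change of its members was 0.03, with 48.5% below 0, against 0.06 and 44.8% over all genes. The median change in Ttf cells was -0.21 in segment 4 and -0.03, -0.03 and -0.02 in segments 1 to 3, beside 0.01 over all genes, and in t12 cells it was -0.07, -0.19 and -0.12 in segments 1 to 3. Ttf replicate 2 and t12 replicate 3 of the sorted cells stood apart from the other carriers, with X-linked genes at -0.23 and -0.17 relative to autosomes, against -0.79 to -1.39 in the other 4, and Ttf replicate 2 had the highest level of segment 1 among the carriers, -0.63. Segments 1 to 4 minus segments 5 to 8 changed by -0.12 in Ttf and -0.23 in t12 sorted cells and by -0.13 and -0.11 in Ttf and t12 testes. With each sorted array left out in turn that change ranged from -0.21, without Ttf replicate 2, to -0.05, without Ttf replicate 3, for Ttf cells and from -0.25 to -0.21 for t12 cells.

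**Figure D1:**
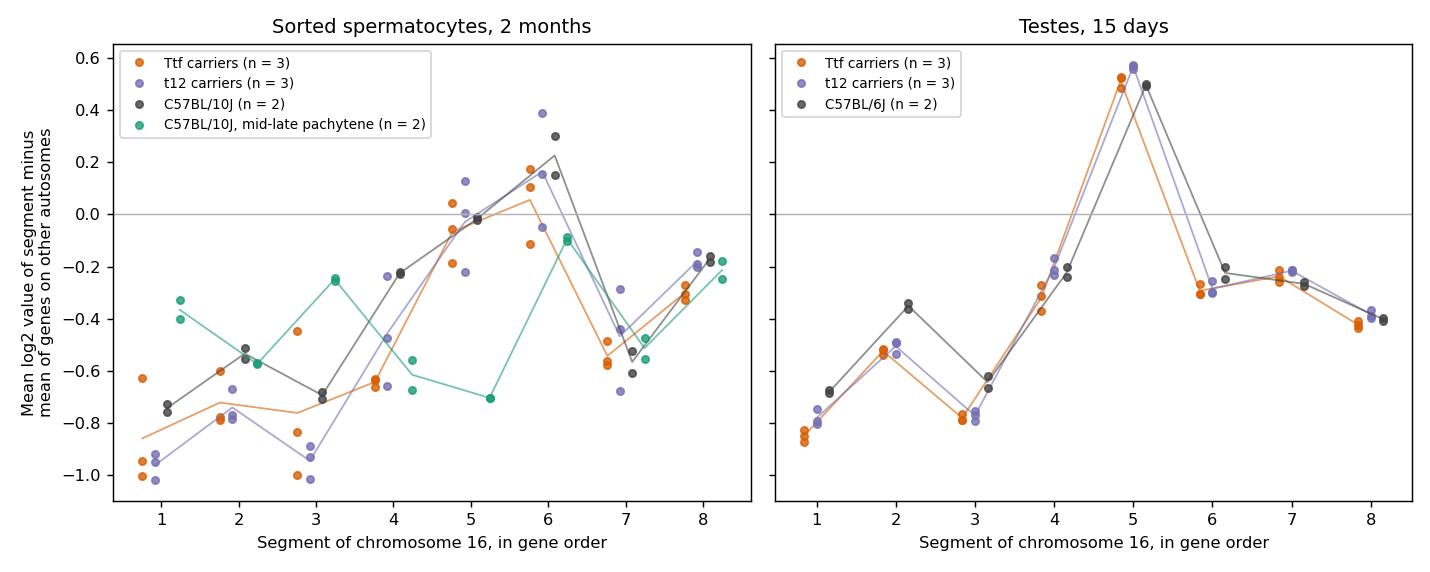
Mean log2 value of the members of each segment minus the mean of genes on other autosomes (vertical axis), for each array (points) with group means (lines), by segment in gene order (horizontal axis), in sorted cells (left) and 15-day testes (right). In testes, all 6 carriers lie below both C57BL/6J arrays in segments 1 to 3, and in segment 5 the t12 carriers lie above them.

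Levels along the chromosome in each group are given as group means of the same scale, with no test. In all 8 testes segment 5 stood highest, at 0.49 to 0.57. Segment 1 was lowest in each testis group, at -0.68 in C57BL/6J, -0.85 in Ttf and -0.78 in t12. In the 3 groups of sorted cells before mid pachytene segment 6 stood highest, at 0.23 in C57BL/10J, 0.06 in Ttf and 0.16 in t12, and segment 1 lowest, at -0.74, -0.86 and -0.96. In mid-late-pachytene C57BL/10J cells segment 5 stood lowest, at -0.70 against -0.02 at the earlier stage, while segments 1 and 3 were at -0.37 and -0.25. Segments 2, 7 and 8 differed least between the stages, at -0.57, -0.51 and -0.21 against -0.53, -0.56 and -0.17.

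Genes on chromosome 17 gave larger differences by the same measure. The proximal part of chromosome 17, with 254 genes, differed from the controls by -0.36 in Ttf and -0.67 in t12 sorted cells and by -0.25 and -0.29 in testes. The Ttf sorted cells overlapped their controls there, with replicate 2 at -0.26 against -0.31 and -0.30 in C57BL/10J. Over all 267 chromosome 16 members the differences were -0.14, -0.11, -0.08 and -0.04 in the same order. No test sets the chromosomes against each other, since the genes share their arrays.

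Genes were also counted rather than averaged, and in testes segments 1 to 3 had the largest shares below the controls. All 6 carrier testes lay below both C57BL/6J arrays in 56 of 254 members tested, against 14.2% of all genes tested, and above both in 39 (15.4%), against 15.6%. By segment the members below numbered 12 of 31, 15 of 31 and 9 of 32 in segments 1 to 3, then 6 of 33, 5 of 33, 5 of 31, 1 of 32 and 3 of 31. The 12 include Septin12, which passed the testis filter only through the C57BL/6J arrays. Segment 7 had the reverse, with 9 members above both controls. In sorted cells 42 of 263 members were below both C57BL/10J arrays, against 13.7% of all genes, and 30 above (11.4%), against 13.3%. By segment the members below numbered 9, 7, 5, 10, 1, 5, 0 and 5. Without Ttf replicate 2 and t12 replicate 3 73 of 263 members met the condition, against 21.3% of all genes, and by segment they numbered 12, 11, 9, 11, 7, 7, 7 and 9.

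The arrays of sorted cells and testes are separate, and so are their controls, and 16 of 250 members tested in both (6.40%) had all carriers below both controls in both tissues, against 3.57% of all genes. By segment they numbered 7, 4, 2, 2, 0, 1, 0 and 0. Of the 16, 13 lay among the 94 members of segments 1 to 3 and 3 among the 156 of segments 4 to 8. That cut follows the testis levels given above, which come from the same testis arrays, so these counts are not separate support for it. Without the 2 sorted arrays that stood apart, 18 lay in segments 1 to 3 and 3 in segments 4 to 8, or 8.40% of the 250 members, against 5.13% of all genes. In segment 1 the 7 genes were Septin12, Rogdi, Dnaja3, Nudt16l1, Trap1, Cluap1 and 1810013L24Rik. Septin12 passed the testis filter only through the 2 C57BL/6J arrays, so its place below them in testes was fixed by the filter. Trap1 and Dnaja3 encode mitochondrial chaperones, and Cluap1 a protein of intraflagellar transport, which builds cilia and flagella. In segments 2 and 3 they were Nde1, a dynein regulator of the spindle, Top3b, a topoisomerase, Cep20, Rsl1d1, Ppil2 and Sdf2l1, and further on Alg3, Pigx and Tmem45a2. In testes Tmem45a2 was near the level of 4, with a mean of 4.15 in C57BL/6J and all t12 arrays below 4. The count above both controls in both tissues was 9 of 250 (3.60%), against 3.47%, with Abat, Adcy9, Vasn and AU021092 in segment 1. Both directions were therefore found in segment 1.

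**Figure D2:**
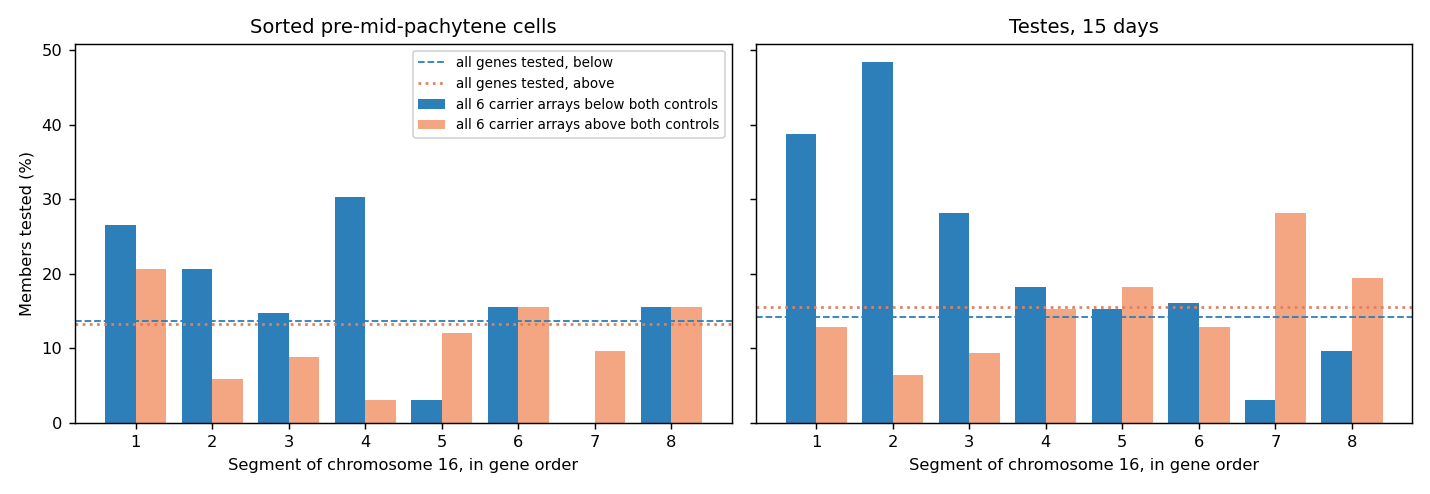
Percent of members tested in each segment (horizontal axis, gene order) whose 6 carrier arrays were all below (blue) or all above (orange) both control arrays, in sorted cells (left) and testes (right), with the same share over all genes tested (lines). In testes the blue bars of segments 1 to 3 stand at 38.7%, 48.4% and 28.1%, above the 14.2% of all genes.

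Septin12 was highest in mid-late-pachytene cells, at 11.97 and 12.32 on the log2 scale, and the C57BL/10J cells of the earlier stage held 8.39 and 7.64. In Ttf cells it was at 5.63, 5.65 and 6.97 and in t12 cells at 2.85, 3.83 and 2.81. The 3 groups of pre-mid-pachytene cells did not overlap. All t12 cells were thus below 4, the level at which a gene was taken as measured, so that differences from them are given as bounds counted from that level. The fall from C57BL/10J to t12 cells was at least 16.2-fold, with an adjusted p of 0.00115 (limma), and the Ttf cells differed from C57BL/10J by -1.93 with an adjusted p of 0.087. The t12 cells were at least 4.24-fold below the Ttf cells, with an adjusted p of 0.0276, the only member called in that comparison. In 15-day testes it was at 5.73 and 5.48 in C57BL/6J, whereas it was at 3.05, 2.95 and 3.01 in Ttf and 2.89, 2.51 and 2.89 in t12 testes, all below 4. It was called in both, with adjusted p of 7.4e-05 and 3.5e-05, and the fall was at least 3.04-fold in each. It passed the filter in testes only through the 2 C57BL/6J arrays, and without either of them it was not tested.

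Lower values in both kinds of sorted carrier cells were called for 3 members, all with groups that did not overlap. Lpp, a protein of focal adhesions, was at 4.66, 4.22 and 4.52 in Ttf cells, 4.12, 5.15 and 5.23 in t12 cells and 6.81 and 6.39 in C57BL/10J. Its fall was 2.14 ± 0.36 in Ttf and 1.77 ± 0.36 in t12 cells, with adjusted p of 0.0278 and 0.0192. Fam3b, a secreted protein of pancreatic islets, was at 5.43, 5.06 and 5.06 in Ttf cells, 4.95, 5.09 and 5.05 in t12 cells and 7.49 and 6.75 in C57BL/10J. It fell by 1.94 ± 0.26 and 2.09 ± 0.26. Dnaja3 was at 6.65, 7.03 and 6.83 in Ttf cells, 6.75, 6.99 and 7.03 in t12 cells and 8.14 and 8.34 in C57BL/10J, a fall of 1.40 ± 0.21 and 1.31 ± 0.21. These 3 genes lie in segments 4, 8 and 1. Both comparisons use the same 2 C57BL/10J arrays, so the calls in Ttf and t12 cells are not separate. Of the 267 members, 263 passed the filter on low values in sorted cells and 254 in testes. The 3 genes were the only members called in Ttf cells, 3 of 263 lower (1.14%) and 0 higher. The shares of all genes by the same limma fit were 1.47% and 0.590%. An unadjusted p under 0.05 was found for 47 of the 263 members, against 1731 of 9666 genes. No call in Ttf cells was left without C57BL/10J replicate 1 or without replicate 2, 1 was left without Ttf replicate 1 or 3, and 10 were made without Ttf replicate 2.

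In t12 cells 9 members fell and 9 rose (3.42% each), against 5.83% lower and 3.24% higher of all genes. Of the 9 that fell, 5 lie in segment 1. Hmox2, a heme oxygenase, was at 11.57, 11.61 and 11.96 in t12 cells and 12.93 and 12.84 in C57BL/10J, a fall of 1.17 ± 0.29. Rogdi was at 6.59, 6.81 and 6.18 against 7.94 and 7.87, a fall of 1.38 ± 0.33. 1700037C18Rik fell by 1.87 ± 0.44. Cdc45, which unwinds DNA at replication origins, was at 10.14, 9.64 and 10.34 against 11.14 and 11.28, and Dnm1l, which divides mitochondria, at 10.76, 10.66 and 10.98 against 11.65 and 11.60. They fell by 1.17 ± 0.28 and 0.83 ± 0.20. The Ttf cells lay below both controls in both genes as well, with differences of -1.27 and -0.91 that missed the threshold. Those are the same 2 controls, so the Ttf values are not separate support. The calls in t12 cells went to 2 without either C57BL/10J replicate and to 30 without t12 replicate 2. Fam3b and Septin12 were called without each array in turn.

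Among the rises in t12 cells were regulators of inflammation. Nfkbiz, a nuclear relative of the NF-kappa-B inhibitors, was at 8.64, 7.83 and 9.90 in t12 cells, 7.75, 5.92 and 7.84 in Ttf cells and 5.70 and 4.74 in C57BL/10J. It rose 11.9-fold, by 3.58 ± 0.72 (adjusted p of 0.0174), and none of the 8 testes was above 2.38. Cebpd, a C/EBP transcription factor, was at 6.59, 6.03 and 8.61 in t12 cells and 4.21 and 3.40 in C57BL/10J, a rise of 3.27 ± 0.72. Il10rb, a receptor chain for interleukin-10 and related cytokines, was at 5.76, 5.75 and 6.89 against 4.16 and 3.95, a rise of 2.08 ± 0.39. Of the 8 interferon, cytokine and immune genes among the members, these 3 rose and 0 fell, with a median of 1.52 against 0.06 over all genes. In Ttf cells their median was 0.74 with none called, and 19 further genes of that list lay below the level. The other rises were those of Pros1, an anticoagulant plasma protein (2.35), Abat, which breaks down GABA (1.82), the zinc finger gene Zbtb21 (1.37) and Klhl22 (0.98), and those of the transporter Slc7a4 and the adhesion molecule Igsf11, which were below 4 in both controls and rose by at least 2.11 and 0.94 from that level. In Ttf cells all of these but Slc7a4 also lay above both controls, with differences of 0.58 to 2.60, and none was called. The 9 genes were chosen as higher in t12 cells than the same 2 C57BL/10J arrays. Low control values alone can place Ttf cells above them, so no conclusion is drawn from it.

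Markers of other cells differed between these groups, in both directions. The 5 of 6 Leydig cell markers on the array averaged 8.92 (8.03 to 10.61) in t12, 7.40 (6.93 to 8.31) in Ttf and 4.90 (3.998 to 5.80) in the C57BL/10J controls of the same stage. Sertoli markers averaged 6.88, 6.39 and 5.70 in the same order, whereas the 5 peritubular markers averaged 4.98, 5.57 and 5.94. Of the peritubular markers, Actg2 was at 3.67, 5.20 and 3.58 in t12, 6.60, 6.52 and 6.93 in Ttf and 9.76 and 9.21 in C57BL/10J cells. Acta2 and Tagln overlapped the controls in both carriers, and Cnn1 and Des stayed below 4. The 5 macrophage markers averaged 3.02, 2.68 and 2.54, and 0 of 5 reached 4 in all arrays of any sorted group. Of these, Lyz2 was at 4.74, 3.19 and 6.08 in t12, 5.04, 3.04 and 3.31 in Ttf and 3.32 and 2.70 in C57BL/10J cells. C1qb was at 4.39 in t12 replicate 3, and C1qa, Cd68 and Csf1r stayed below 4 in all sorted arrays. Markers of spermatids averaged 6.47 in t12, 10.27 in Ttf and 11.86 in C57BL/10J cells, and those of the leptotene to pachytene stages 12.95, 12.74 and 12.84. The 6 markers of mid-late pachytene averaged 9.50, 10.09 and 10.52 in the same order. Among them Pgk2, a chromosome 17 gene, was at 7.53, 10.37 and 7.43 in t12, 10.35, 10.82 and 11.07 in Ttf and 13.03 and 12.80 in C57BL/10J cells. Ccna1 also lay below both controls in t12 cells. Piwil1, Hspa2 and Ldhc overlapped the controls in both carriers, and H1f6 stayed below 4. Markers of spermatogonia averaged 6.46 (5.81 to 6.89) in t12, 6.85 (5.9997 to 8.25) in Ttf and 5.91 (5.77 to 6.05) in C57BL/10J cells, and the highest value was that of Ttf replicate 2. The difference between 3' and 5' probes of Gapdh, a sign of shortened RNA, was 3.26 to 3.98 in the carriers and 2.86 to 2.93 in the controls, and in testes it was -0.12 to 0.14. The part of any of these in the changes of the sorted cells was not tested. In such bulk RNA, fewer cells of a type and less RNA per cell cannot be told apart. The spermatid genes left out of the members, Prm1, Prm2 and Tnp2, are 3 of the 9 spermatid markers. Prm2 was at 5.03, 6.46 and 5.26 in t12 cells, 10.17, 9.97 and 9.95 in Ttf cells and 12.80 and 12.18 in C57BL/10J, falls of 6.91 and 2.46. Prm1 and Tnp2 fell by 5.08 and 6.43 in t12 cells, and in Ttf cells they differed by -1.13 and -0.60, with adjusted p of 0.586 and 0.633.

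**Figure D3:**
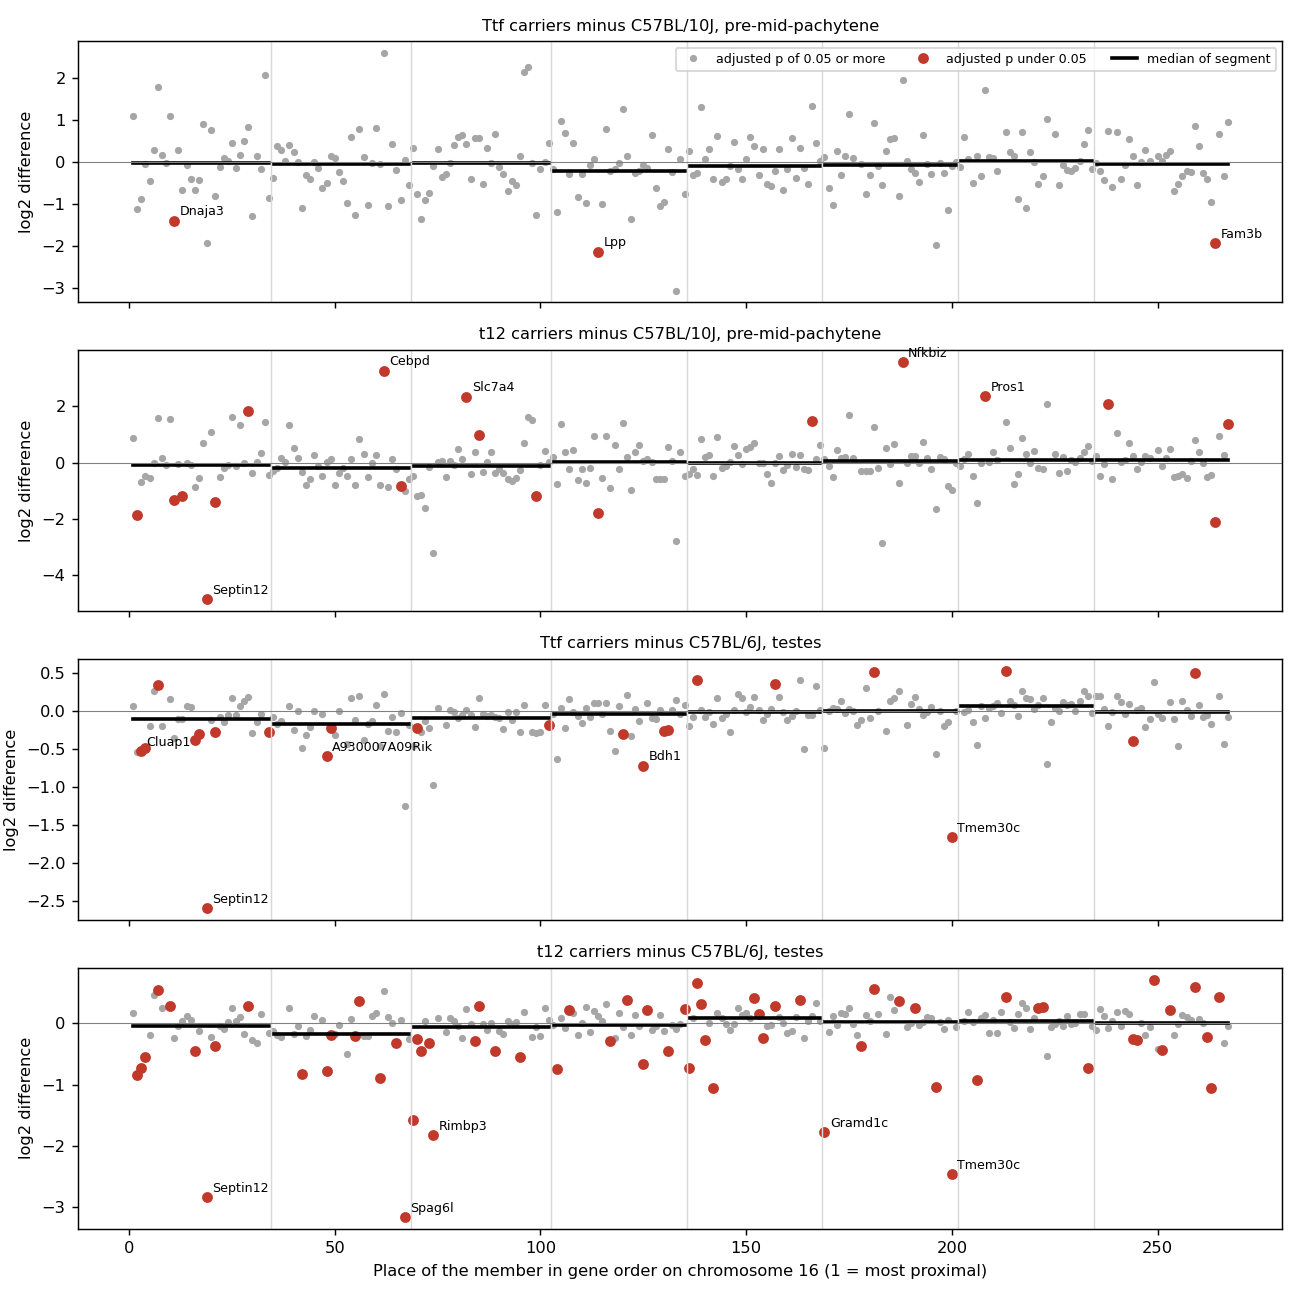
Log2 difference between carriers and controls (vertical axis) for each member in gene order on chromosome 16 (horizontal axis), in sorted cells and testes, with members past an adjusted p of 0.05 in red and segment medians as bars. In testes the medians of segments 1 to 3 lie below 0 in both carrier groups, and Septin12 is the lowest point in 2 of the 4 panels.

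Replicates were closer in testes, where their correlations across genes were 0.994 to 0.998, than in sorted cells, where they were 0.888 to 0.992. Leydig markers still averaged 6.39 (4.405 to 7.56) in Ttf, 6.12 (4.99 to 7.60) in t12 and 7.82 (7.43 to 8.21) in C57BL/6J testes. Sertoli markers averaged 9.28, 9.43 and 9.29 in that order, peritubular 8.70, 8.57 and 8.68, macrophage 7.35, 7.40 and 7.61, and spermatogonial 7.52, 7.68 and 7.45. The part of these cells in the testis changes was not tested. In Ttf testes 17 of 254 members fell (6.69%) and 6 rose (2.36%), against 4.70% and 3.86% of all genes. The falls numbered 7, 2, 2 and 4 in segments 1 to 4 and 2 in segments 5 to 8 together. Between 67.7% and 81.2% of the members of segments 1 to 3 had a difference below 0, against 49.0% of all genes. Slx4, the scaffold of nucleases that resolve DNA crossovers, was at 5.25, 5.29 and 5.24 in Ttf testes, 5.24, 5.11 and 5.24 in t12 testes and 5.74 and 5.76 in C57BL/6J. It fell by 0.49 ± 0.06 and 0.55 ± 0.06, with adjusted p of 0.00383 and 0.0013. Cluap1, next to it, was at 9.46, 9.52 and 9.23, at 9.28, 9.22 and 9.11, and at 9.95 and 9.91, falls of 0.53 ± 0.09 and 0.73 ± 0.09. Nudt16l1 fell by 0.39 and 0.46, Rogdi by 0.28 and 0.38, and Anks3 fell by 0.31 in Ttf testes.

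Outside the first segments, Bdh1, the mitochondrial enzyme that turns over ketone bodies, was at 6.97, 7.08 and 6.85 in Ttf testes, 7.04, 7.06 and 6.98 in t12 testes and 7.67 and 7.70 in C57BL/6J. It fell by 0.72 ± 0.07 and 0.66 ± 0.07, while the 10 sorted arrays held between 6.13 and 6.52 with no call. Donson, a replication fork protein, fell by 0.40 and 0.26, and Tmem30c, a testis relative of flippase subunits, by 1.66 ± 0.29 and 2.47 ± 0.29. Higher in both carriers were Dyrk1a, a kinase of the region matching human chromosome 21, by 0.50 and 0.60, Tfrc, the transferrin receptor, by 0.41 and 0.66, Dzip3, a ubiquitin ligase, by 0.51 and 0.56, the glycogen branching enzyme Gbe1 by 0.53 and 0.42, Adcy9 by 0.34 and 0.55, and Iqcb1 by 0.35 and 0.29. The Ttf calls went to 4 without C57BL/6J replicate 1, 3 without replicate 2, 14 without Ttf replicate 1 and 8 without Ttf replicate 2. Bdh1 and Slx4 were called without each array in turn.

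In t12 testes 40 members fell (15.7%) and 25 rose (9.84%), against 11.3% and 10.5% of all genes. The falls were spread along the chromosome, 6, 7, 8, 4, 4, 4, 2 and 5 by segment. The largest was that of Spag6l, a protein of the central pair of the sperm tail, at 5.75, 5.60 and 4.59 in t12 testes, 7.67, 7.24 and 6.75 in Ttf testes and 8.55 and 8.39 in C57BL/6J. It fell by 3.16 ± 0.38 from C57BL/6J and by 1.91 ± 0.34 from Ttf testes, and the groups did not overlap, though it has a close copy, Spag6, whose signal may be shared. Gramd1c, a carrier of cholesterol between membranes, was at 6.35, 6.29 and 6.05 in t12, 7.86, 7.65 and 7.03 in Ttf and 8.13 and 7.88 in C57BL/6J testes. It fell by 1.78 ± 0.23 from C57BL/6J and by 1.29 ± 0.21 from Ttf testes. Rimbp3, which acts in shaping the sperm head, fell by 1.82 ± 0.48, and Ypel1 by 1.57 ± 0.25. Iqcg and Lca5l, both of sperm tails or cilia, fell by 1.05 ± 0.16 and 1.05 ± 0.20. Rises were smaller, with Clic6 at 0.71, Tfrc at 0.66, Dyrk1a at 0.60, Ripk4 at 0.42 and Slc49a4 at 0.41. The t12 calls went to 38 without t12 replicate 2, 21 without C57BL/6J replicate 1 and 34 without replicate 2.

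Set against Ttf testes, the t12 testes had 7 members lower (2.76%) and 3 higher (1.18%), against 3.92% and 1.07% of all genes. Besides Spag6l and Gramd1c, the lower members were Ypel1 (by 1.11), the kinase Hunk (0.93), Iqcg (0.89), Lca5l (0.88) and Tctex1d2 (0.53), and none of the 7 was in segment 1. The higher members were Mcm4, a subunit of the replicative helicase, by 0.26, Yeats2 by 0.25 and Hes1, a repressor downstream of Notch, by 0.24. No call was left without Ttf replicate 1 or 2 or t12 replicate 2 or 3, and 19 were made without Ttf replicate 3. With centring on the autosomes 5 were higher and 6 lower. In sorted cells the same comparison gave 20 of 263 members an unadjusted p under 0.05, beside 987 of 9666 genes. It called 1 of 263 lower (0.380%), Septin12, against 0.693% of all genes, and 0 higher, against 0.0621%. That call was lost without t12 replicate 1 or 3 or any Ttf replicate, and 4 were made without t12 replicate 2. Median differences between t12 and Ttf sorted cells were 0.11 to 0.26 in segments 4 to 8, 0.04 in segment 2 and -0.11 in segments 1 and 3. Over all members the median was 0.09, beside 0.05 over all genes. Without the 2 sorted arrays that stood apart these were 0.01 and -0.03. The t12 minus Ttf difference itself differed between sorted cells and testes for Septin12 alone, 1 of 267 members lower (0.375%), against 0.668% of all genes.

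**Figure D4:**
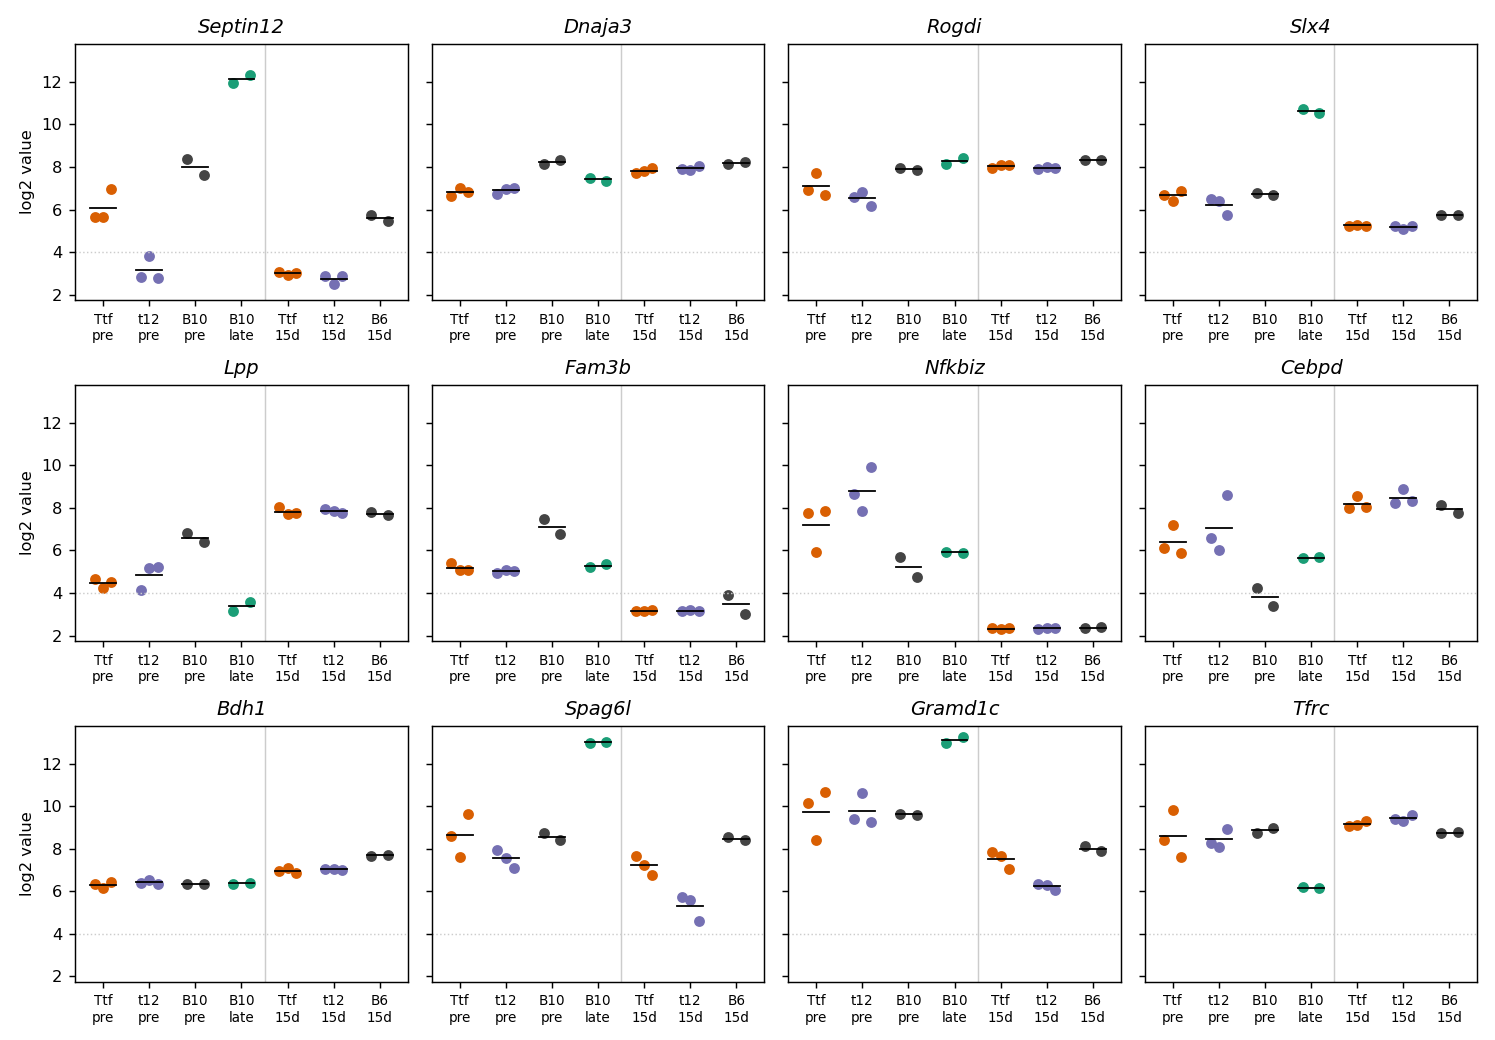
Log2 value (vertical axis) of 12 members in each array (points) with group means (lines), for the sorted groups (left of the vertical line) and testes, with the level of 4 that chose the members dotted. Septin12 lies below 4 in all t12 arrays and in the testes of both carrier groups, and Bdh1 is lower in carrier testes only.

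More members differed between the C57BL/10J sorts of the 2 stages than between carriers and controls. Between pre-mid-pachytene and mid-late-pachytene cells of C57BL/10J, 54 of 263 members rose (20.5%) and 93 fell (35.4%), against 26.2% and 30.3% of all genes, with a median of -0.38 against -0.11. Under quantile normalization the median of all genes moved to 0.11 and that of the members to -0.12. Median changes by segment ran from 0.08 in segment 1 to -0.99 in segment 5. Markers of other cells fell between these sorts too, Leydig from 4.90 to 3.48, Sertoli from 5.70 to 3.83 and peritubular from 5.94 to 4.53. Spermatogonial markers fell from 5.91 to 2.75 and spermatid markers from 11.86 to 9.22, while macrophage markers stood at 2.54 and 2.77. The part of these cells in the changes called stage here was not tested. Nxpe3 rose from 5.32 and 5.35 to 11.22 and 11.39, a 62.5-fold rise, and Snai2, a transcription factor of the Snail family, from 3.93 and 3.56, below the level of 4, to 9.68 and 9.71. Crybg3, D16Ertd472e, Spag6l, Hunk, Septin12 and Tmem30c rose by 3.98 to 5.10. Slx4 rose from 6.76 and 6.66 to 10.75 and 10.53. Pdia5, a protein disulfide isomerase, fell from 9.11 and 9.45 to 2.18 and 2.58, below the level of 4, and App, the amyloid precursor, from 12.22 and 12.14 to 5.82 and 6.20. Mcm4, Dppa4, Polr2h and Pigx fell by 5.05 to 6.52, and Parn and Nit2 fell to below 4, at least 27.3-fold and 11.9-fold. Slx4 aside, all 16 of these members were called without each array in turn.

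The stage comparison and the testis comparisons share no array, and their calls were set side by side over the 250 members tested in both. Of 50 members higher in mid-late pachytene, 20 were lower in t12 than in C57BL/6J testes, which is 40.0% of the first set and 20 of the 40 that fell, and 0 were higher. Over all 8187 genes tested in both, the shares were 24.5% of those higher with stage and 44.1% of those that fell in t12 testes. Of 92 members lower in mid-late pachytene, 14 (15.2%) were higher in t12 testes, 58.3% of the 24 that rose, against 17.2% and 55.1% over all genes, and 6 were lower. Of the 17 that fell in Ttf testes, 5 (29.4%) rose with stage, against 34.9% over all genes, namely Septin12, Slx4, Tmem30c, Donson and Cep19. Of the 7 members lower in t12 than in Ttf testes, 6 (85.7%) rose with stage, against 57.1% over all genes. Markers of mid-late pachytene, 6 genes, averaged 7.45 (7.22 to 7.61) in t12, 8.07 (7.83 to 8.23) in Ttf and 8.43 (8.33 to 8.53) in C57BL/6J testes. The lower Ttf mean came from Pgk2, a chromosome 17 gene, at 3.30, 2.78 and 2.74 against 5.66 and 5.23 in C57BL/6J. Piwil1, Hspa2 and Ldhc overlapped C57BL/6J in Ttf testes and lay below it in t12 testes. Ccna1 and H1f6 were below 4 in all testes. The part of these markers in the falls was not tested. Of the 17 that fell in Ttf testes, 3 (17.6%) also fell with stage, namely Cluap1, Pigx and Rrn3, against 24.5% over all genes. Of the 40 that fell in t12 testes, 6 (15.0%) also fell with stage, against 13.4% over all genes.

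**Figure D5:**
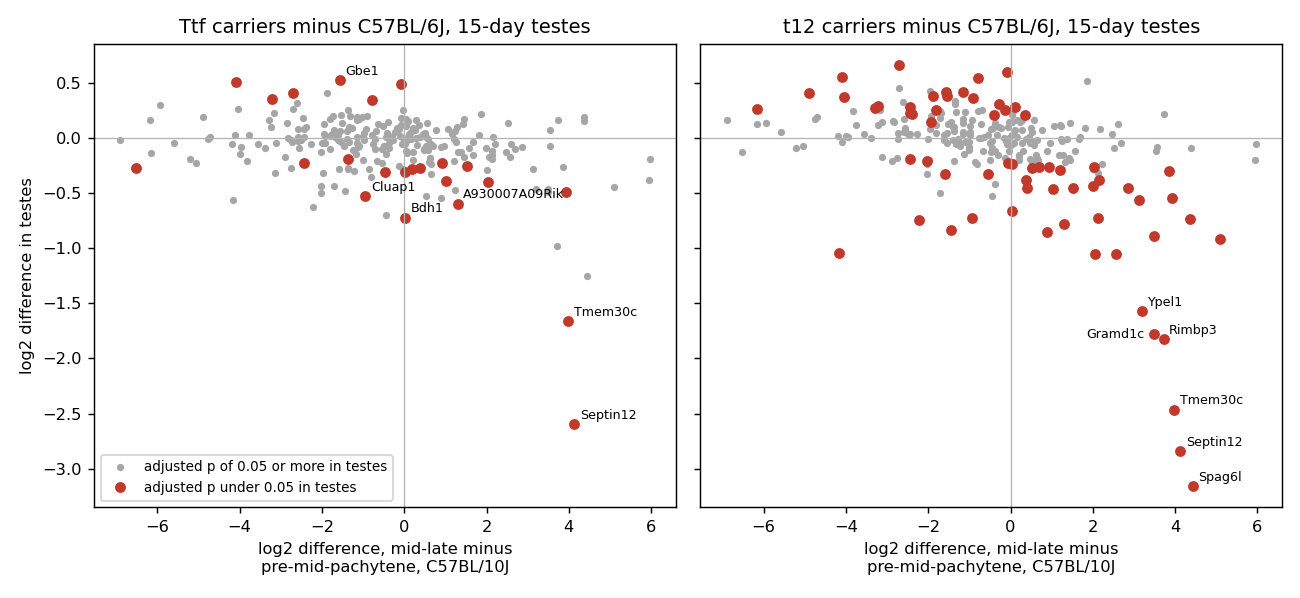
Log2 difference between mid-late and pre-mid-pachytene cells of C57BL/10J (horizontal axis) and between carrier and C57BL/6J testes (vertical axis) for each member tested in both, for Ttf (left) and t12 (right), with members past an adjusted p of 0.05 in testes in red. Septin12, Tmem30c and, in t12, Spag6l are at the lower right.

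The members were also read by function, in lists chosen with earlier results known. The counts below stand beside 11.3% lower and 10.5% higher of all genes in t12 testes, and 4.70% and 3.86% in Ttf testes. In t12 sorted cells these shares were 5.83% and 3.24%, and with stage 30.3% and 26.2%. Of 13 testis and spermatid genes, 0 rose and 1 fell in t12 sorted cells, and in t12 testes 5 fell (Septin12, Iqcg, Lca5l, Cep19 and Cep20) and 2 rose (Dzip3 and Iqcb1), with a median of 0.00 against 0.02 over all genes. Of 20 DNA repair, replication and chromosome genes tested in testes, Slx4 and Donson fell in both carriers and Morc3 rose in t12, with medians of -0.10 in Ttf and -0.06 in t12. Ercc4, the nuclease that works with Slx4, rose with stage from 4.99 and 4.81 to 8.12 and 7.77 and lay below 3 in all testes. Of 20 genes from the region matching human 22q11, Dgcr6, Gnb1l and Med15 fell and Klhl22 rose in t12 testes, with a median of -0.09, and 0 changed in Ttf testes, where the median was -0.09 as well. Of 49 genes from the region matching human chromosome 21, 6 rose and 6 fell in t12 testes, with a median of 0.01, and 1 rose and 1 fell in Ttf testes. Sod1, the copper and zinc superoxide dismutase of that region, was at 15.38 and 15.47 before mid pachytene in C57BL/10J and fell by 2.86 ± 0.23 with stage.

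Among 25 metabolic enzymes, 4 fell (Alg3, Bdh1, Cbr1 and Nudt16l1) and 2 rose (Abat and Gbe1) in t12 testes. With stage 11 of the 25 fell and 2 rose, beside 30.3% and 26.2% of all genes. Of 22 transcription factors and chromatin regulators tested in testes, Gabpa, Morc3 and Zbtb11 rose and Med15 fell in t12, and Hes1 fell in Ttf. Among 13 genes of the ubiquitin and SUMO system Ubxn7 rose and Ube2l3 fell in t12 testes. Among 18 genes of membrane traffic and the cytoskeleton Dlg1, Tnk2 and Vps8 rose and Fyttd1 fell, and among 12 adhesion, matrix, junction and muscle genes Alcam and App rose and Nectin3 fell. Medians of these 5 lists in t12 testes lay between 0.00 and 0.11, beside 0.02 over all genes.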

How the data were processed

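Gene expression was measured on 18 Affymetrix arrays. The deposited table holds log2 values that the authors computed by GCRMA, per the submitters' processing notes, with a single probe set for each Entrez gene. GCRMA's version, the genome build and which arrays were normalized together are not given in the sources used here. Of 16539 probe sets, 15780 carry 1 gene symbol, and the others were left out. The labelling protocol used 20 to 30 ng of RNA in 2 rounds of amplification, and the design text calls the replicates biological. Arrays have no read depth, and their number limits the precision. Groups came from sample titles. The members and lists were chosen with earlier results of these data known.

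limma 3.58.1 in R 4.3.3 was fitted in the 10 sorted arrays and the 8 testes, with 1 mean per group, over genes with a log2 value of at least 4 in at least 2 arrays. Differences are log2 values, ± is the standard error and a gene was called at a Benjamini-Hochberg adjusted p under 0.05 over all genes. The Ttf and t12 comparisons of a tissue share their 2 control arrays, so their agreement is not separate support. The difference of differences was fitted over all 18 arrays. Up to 8 rises and 8 falls with groups that did not overlap were named per comparison, clone names aside. The fit was tested on simulated data. GRCm38.p6 gave names and gene order. Alternatives were another filter, no filter, quantile normalization, centring, a single fit, a replicate block, a level of 6 to choose members, medians, and leaving out arrays. Samples with the same replicate number did not deviate together in every pair, so numbers were not used as pairs.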

Additional observations from a re-analysis of the deposited data

Results flagged for a closer look

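Septin12 was taken up because its difference between t12 and Ttf carriers itself differed between the tissues, by -2.68 ± 0.50 on the log2 scale with an adjusted p of 0.0225 (limma over 18 arrays). The t12 carriers were at least 4.24-fold below the Ttf carriers in sorted cells, whereas the testes of both carriers were below the level of 4, where little difference can show. The call was lost without t12 replicate 3 of the sorted cells, without any of the 3 Ttf testes and without t12 testis replicate 1 or 3, and 4 members were called without t12 replicate 2 of the sorted cells. Its cause was not tested.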

How the results depend on the processing

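No named member changed sign under any alternative run, while of 96 segment differences 37 moved by more than the spread between replicates and 12 changed sign, 10 of them with medians in place of means. Members called in Ttf against C57BL/10J sorted cells, 3, went to 8 with no filter, 8 with quantile normalization (3 higher and 5 lower), 6 with centring, 43 with all 18 arrays in a single fit and 20 without both arrays that stood apart, and ranged from 0 to 10 with each array left out. For t12 cells, 18 went to 59 in the single fit and 2 to 30 with each array left out. For t12 against Ttf cells, 1 went to 0 with no filter, 9 in the single fit, 0 without both arrays that stood apart and 0 to 4 with each left out. For stage, 147 ranged from 114 to 121 with each array left out and from 139 to 179 under the other settings. In testes, 23 members for Ttf went to 2 in the single fit and 3 to 24 with each array left out, 65 for t12 to 5 and 21 to 51, and 10 for t12 against Ttf to 2 with no filter, 0 in the single fit and 0 to 19. The difference of differences went from 1 to 0 with no filter and 0 to 4. A lone sample left in a group is assumed to vary like the others. With the replicate block the counts were 0, 5 and 0 in sorted carriers, 139 for stage and 66, 83 and 43 in testes, and calls lost there are not read as weaker effects, since the numbers share no known source. Correlations of deviations between same-numbered Ttf and t12 arrays were 0.21, -0.02 and -0.37 in sorted cells and 0.50, -0.02 and 0.70 in testes, and 2 of 6 sorted and 4 of 6 testis arrays correlated best with their own number. The difference between segments 1 to 4 and 5 to 8 with medians in place of means was -0.27, -0.42, -0.15 and -0.23 in Ttf and t12 cells and Ttf and t12 testes, and -0.27 in t12 cells with a level of 6 to choose members. With each testis array left out it ranged from -0.14 to -0.12 for Ttf and from -0.12 to -0.10 for t12. Signal near background limits Septin12, Fam3b and Nfkbiz in testes.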
